A study of Mus musculus with 12 samples.

Results

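The genes described here number 10: Mpo, Elane, Prtn3, Ctsg, Ms4a3, Cpa3, Mcpt8, Gzmb, Prss34 and Hdc. Apart from Ms4a3 and Hdc, these genes encode granule proteins of granulocytes, basophils and mast cells. Ms4a3 encodes a membrane protein that marks progenitors, and Hdc the enzyme that makes histamine. All are called granule genes here. They were chosen by symbol, as the rows of the deposited array values whose platform symbol is exactly 1 of these names. All 10 were found, with 1 probe set each, among 22180 genes with a probe set of exactly 1 symbol, and all 10 passed the brightness limit that left 15348 genes for testing (a log2 value above 5.29 in at least 3 arrays). The arrays measured RNA of LSK cells, the bone marrow fraction without lineage markers that carries SCA1 and cKIT and is enriched for stem and progenitor cells, from mice older than 20 months on a C57BL/6 background of at least 10 backcross generations. The 12 arrays formed 4 groups of 3: NIPA KO cells irradiated with 4 Gy, NIPA KO cells left untreated, wild type (WT) cells irradiated with 4 Gy and WT cells left untreated. Each sample pooled the sorted cells of 3 mice. Before treatment all groups spent 30 min in medium with 30% serum and 3 cytokines (SCF at 50 ng/ml, IL-6 and IL-3 at 10 ng/ml each), and all were harvested 3 h later. NIPA is the product of Zc3hc1; the labels do not say which part of the gene is missing, or in which cells. Values are log2 expression after RMA, a method that corrects background, normalizes arrays by quantiles and summarises probes, so a difference of 1 is a 2-fold difference. Values of different probe sets are not set against each other.

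Granulocytes make their granules in order. The azurophil or primary granules, which hold myeloperoxidase and the serine proteases neutrophil elastase, proteinase 3 and cathepsin G, are filled at the promyelocyte stage, and the genes of these proteins are switched on earlier, in granulocyte-monocyte progenitors. Mast cells and basophils store carboxypeptidase A3, chymase-like and tryptase-like proteases and histamine, and their precursors share part of this programme with multipotent cells. In LSK cells, transcripts of this kind are known as signs of myeloid priming. In such bulk samples, more cells of a type and more RNA per cell cannot be told apart.

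The sort and the genotype were checked first. Zc3hc1 had log2 values of 5.61 to 5.82 in the 6 KO arrays, against 7.67 to 8.47 in the 6 WT arrays. Kit was bright in all 12 arrays (9.97 to 11.3), while Cd3e, Cd4, Cd8a and Ly6g, which belong to the lineage stain, did not pass the brightness limit. Itgam, the gene of the stained CD11b, did pass it, with 7.50 to 8.66 in irradiated KO, 8.24 to 8.52 in untreated KO, 7.39 to 7.89 in irradiated WT and 7.68 to 8.65 in untreated WT cells. Of 8 genes listed for the lineage stain, 3 passed the limit: Itgam, Ptprc and Ly6c2. Low signal was therefore not shown for the whole stain. Ptprc had 10.4 to 10.8 over the 12 arrays. Ly6c2 was highest in array 1 of both KO groups (19.8% of all genes) and lowest in array 1 of both WT groups (18.2%). Its own level is not given here, and a mean taken with Ptprc can hide its spread. The mean of the 3 was 9.58 to 10.25 in irradiated KO and 9.69 to 10.19 in untreated KO cells. In WT cells it was 9.25 to 9.84 with irradiation and 9.35 to 10.03 without it. Ly6a is not analysed here. The 12 array medians lay between 5.74 and 5.85.

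None of the 10 granule genes passed the test in any comparison fitted over all 12 arrays without a replicate block (0.00% to 16.5% of all genes tested did, by comparison), and the main feature of their values was a large and ordered difference between arrays of the same group. The samples numbered 1 were often the highest or lowest of their group, though not always by much. For Gzmb and Hdc the gap from array 1 to its nearer neighbour was smaller than that between arrays 2 and 3 in every group. In irradiated WT cells it was 0.40 against 0.71 for Gzmb and 0.48 against 0.70 for Hdc. For Mcpt8 in untreated KO cells array 1 was lowest by 0.024. In WT cells array 1 was the lowest of its group for all 10 genes, both with and without irradiation, which held for 18.2% of all genes tested. In KO cells array 1 was the highest of its group at both doses for 6 of the 10, Elane, Prtn3, Ctsg, Ms4a3, Cpa3 and Hdc (19.8% of all genes), and the lowest at both doses for the 2 basophil protease genes Mcpt8 and Prss34 (15.6% of all genes). The labels give nothing that sets the samples numbered 1 apart. Spreads, correlations between members and KO minus WT differences are given below with and without them.

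**Figure D1:**
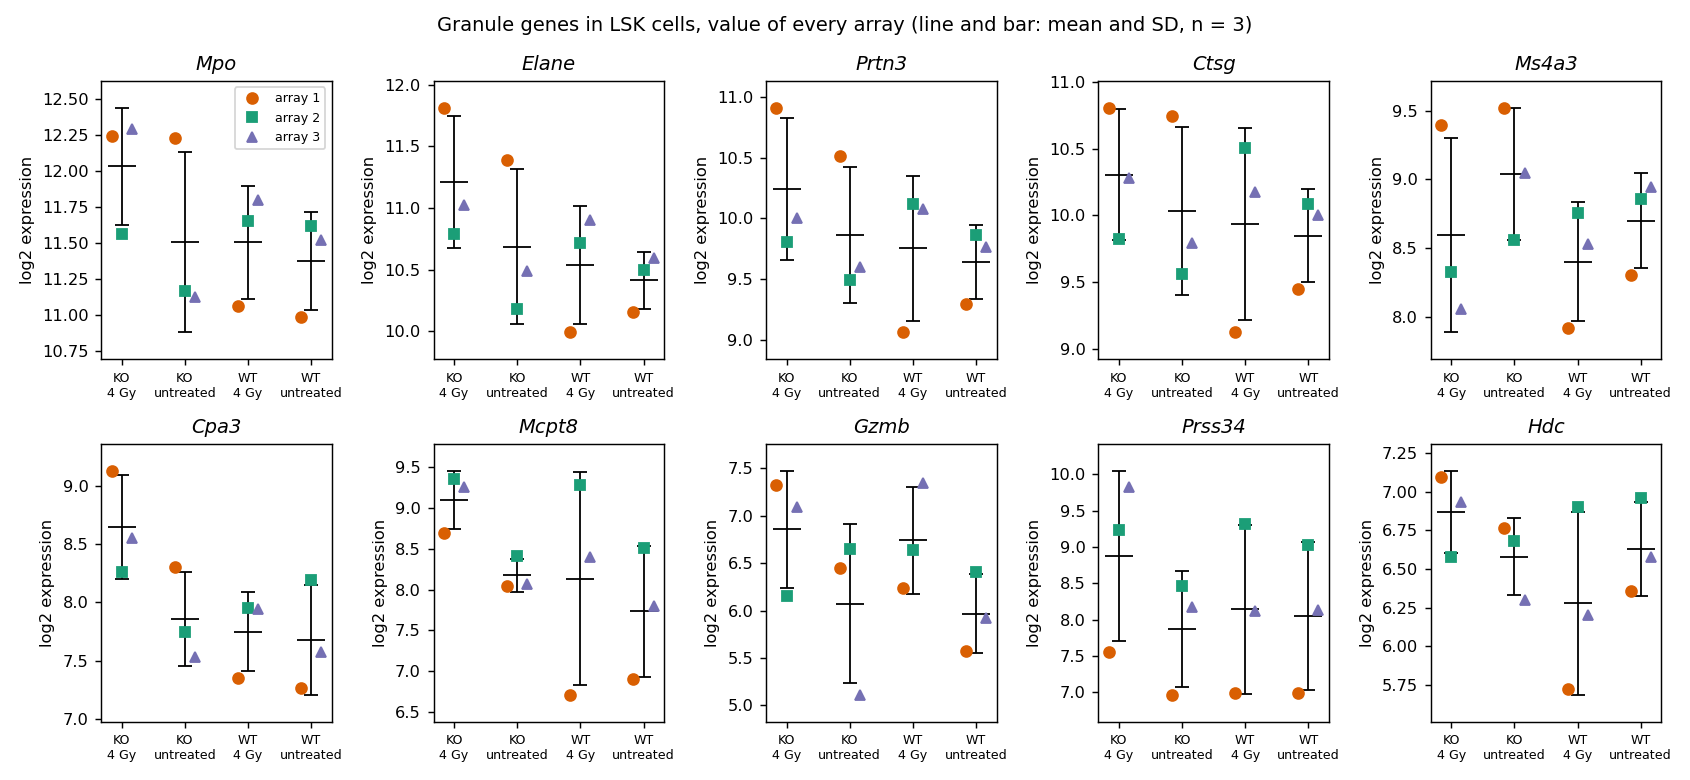
Log2 expression of the 10 granule genes (vertical axis, with its own range in each panel) in the 4 groups of 3 arrays; each symbol is 1 array, and the line and bar are the group's mean and SD. The circles of arrays numbered 1 lie lowest in both WT groups in all panels, and highest in both KO groups for Elane, Prtn3, Ctsg, Ms4a3, Cpa3 and Hdc.

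Elane (neutrophil elastase), Prtn3 (proteinase 3) and Ctsg (cathepsin G) encode the serine proteases of the neutrophil primary granule. Elane and Prtn3 are direct neighbours on chromosome 10, whereas Ctsg lies on chromosome 14 beside Mcpt8 and in the same cluster as Gzmb. Their promoters are shown because the 3 genes moved together from array to array. Each window runs from 250 bases before to 50 bases after the transcript start in RefSeq's GRCm38.p6 and is written 5′ to 3′ on the strand of the gene. Elane's window is chr10:79886062-79886361, plus strand, Prtn3's is chr10:79879417-79879716, plus strand and Ctsg's is chr14:56102525-56102824, minus strand. Capitals mark matches to short motif cores on either strand: GGAAGT for PU.1, AACGG for MYB, TTGCNNAA for C/EBP, AGATAA for GATA factors and TGTGGT for RUNX factors.
Elane: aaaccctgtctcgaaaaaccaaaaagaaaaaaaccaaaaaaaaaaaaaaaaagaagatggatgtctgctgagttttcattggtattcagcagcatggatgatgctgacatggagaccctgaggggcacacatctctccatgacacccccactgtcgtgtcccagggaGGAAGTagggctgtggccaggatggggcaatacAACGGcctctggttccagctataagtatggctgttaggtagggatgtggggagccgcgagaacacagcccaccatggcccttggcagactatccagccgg
Prtn3: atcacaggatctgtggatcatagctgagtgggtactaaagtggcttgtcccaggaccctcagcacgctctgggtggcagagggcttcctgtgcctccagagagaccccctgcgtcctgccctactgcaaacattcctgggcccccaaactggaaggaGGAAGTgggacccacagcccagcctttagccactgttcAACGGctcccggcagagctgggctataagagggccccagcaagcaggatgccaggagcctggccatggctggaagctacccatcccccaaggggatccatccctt
Ctsg: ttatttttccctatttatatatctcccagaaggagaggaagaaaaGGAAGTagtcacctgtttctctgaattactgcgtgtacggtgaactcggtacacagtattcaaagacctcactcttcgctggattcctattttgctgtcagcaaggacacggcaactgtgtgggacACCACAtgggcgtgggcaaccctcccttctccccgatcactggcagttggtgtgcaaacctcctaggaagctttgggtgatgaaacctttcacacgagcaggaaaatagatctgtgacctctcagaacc
The Elane and Prtn3 windows both hold a PU.1 core (from -83 in Elane, from -93 in Prtn3, counted from the start) followed by a MYB core (from -50 and from -55). Ctsg's window holds a PU.1 core from -205 and, on the opposite strand, a RUNX core from -79. Of 32817 windows of this length, 23.8% hold the PU.1 core, 17.4% the MYB core and 16.8% the RUNX core, and 10.8% hold the C/EBP core. Of the 10 members, 5 hold the PU.1 core (Mpo, Elane, Prtn3, Ctsg and Ms4a3), 2 the MYB core, 4 the RUNX core (Ctsg, Cpa3, Mcpt8 and Gzmb) and 1, Ms4a3, the C/EBP core. These matches describe letters and are not measured binding.

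Elane had log2 values of 11.81, 10.79 and 11.03 in irradiated KO, 11.39, 10.18 and 10.49 in untreated KO, 9.99, 10.71 and 10.91 in irradiated WT and 10.15, 10.50 and 10.59 in untreated WT cells, in the order of array numbers 1 to 3. Array 1 was highest in both KO groups and lowest in both WT groups. Irradiated and untreated arrays overlapped in each genotype, and KO and WT arrays overlapped at each dose. Means were 11.21 ± 0.53 in irradiated KO, 10.69 ± 0.63 in untreated KO, 10.54 ± 0.48 in irradiated WT and 10.42 ± 0.23 in untreated WT cells (SD, n = 3). Irradiated minus untreated was 0.52 in KO (SE 0.33, limma adjusted p = 0.436) and 0.12 in WT cells (adjusted p = 0.879). KO minus WT was 0.67 after irradiation (95% confidence interval -0.06 to 1.40, adjusted p = 0.999) and 0.27 without it. The interval for irradiated against untreated KO cells ran from -0.20 to 1.25. That difference was 0.22 without irradiated KO array 1, 0.87 without untreated KO array 1 and 0.57 without all arrays numbered 1.

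Prtn3 followed the same order of arrays. It had 10.91, 9.81 and 10.01 in irradiated KO, 10.51, 9.49 and 9.60 in untreated KO, 9.06, 10.12 and 10.08 in irradiated WT and 9.30, 9.86 and 9.76 in untreated WT cells. Apart from the arrays numbered 1, its values in a group lay within 0.20 of each other, and with them the groups spanned 0.57 to 1.10. For Prtn3, irradiated minus untreated was 0.37 in KO (SE 0.36, limma adjusted p = 0.637) and 0.11 in WT cells (adjusted p = 0.899). With 1 array left out the KO difference ranged from 0.04, without irradiated KO array 1, to 0.70, without untreated KO array 1.

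Ctsg had 10.80, 9.83 and 10.28 in irradiated KO, 10.75, 9.56 and 9.79 in untreated KO, 9.13, 10.50 and 10.18 in irradiated WT and 9.45, 10.09 and 10.00 in untreated WT cells. Its lowest value of all was irradiated WT array 1 and its highest irradiated KO array 1. The irradiation difference of Ctsg was 0.27 in KO and 0.09 in WT cells (limma adjusted p = 0.771 and 0.926). The KO difference was 0.020 without irradiated KO array 1 and 0.63 without untreated KO array 1.

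Mpo, which encodes the myeloperoxidase that turns hydrogen peroxide and chloride into hypochlorous acid, differed from the proteases in irradiated KO cells. It had 12.24, 11.56 and 12.29 there, 12.23, 11.16 and 11.12 in untreated KO, 11.06, 11.65 and 11.80 in irradiated WT and 10.98, 11.62 and 11.52 in untreated WT cells. In irradiated KO cells array 3 was as high as array 1, whereas for the 3 proteases array 1 stood alone. For Mpo, irradiated minus untreated was 0.53 in KO (SE 0.31, limma adjusted p = 0.395) and 0.13 in WT cells (adjusted p = 0.863).

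Ms4a3 encodes a 4-pass membrane protein that marks granulocyte-monocyte progenitors, and it was the only neutrophil-lineage member with a negative irradiation difference in both genotypes. Its values were 9.39, 8.33 and 8.06 in irradiated KO, 9.52, 8.56 and 9.04 in untreated KO, 7.91, 8.75 and 8.53 in irradiated WT and 8.30, 8.85 and 8.94 in untreated WT cells. The difference was -0.45 in KO (SE 0.35, limma adjusted p = 0.540) and -0.30 in WT cells (adjusted p = 0.683), and the groups overlapped in both. The labels do not say whether numbers pair the samples, but deviations over all genes tested matched the WT arrays by number. In the WT pairs taken from this match, all 3 were lower after irradiation, at -0.39, -0.0997 and -0.41.

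Among the mast cell and basophil genes, Cpa3, Mcpt8 and Prss34 carried the patterns, and their promoters are shown for that reason, with the same marking and build. Cpa3 encodes mast cell carboxypeptidase A3, Mcpt8 a granzyme-like protease that marks mouse basophils, and Prss34 a tryptase-like protease of mouse basophils and mast cells. The Cpa3 window is chr3:20242132-20242431, minus strand, that of Mcpt8 is chr14:56085148-56085447, minus strand and that of Prss34 is chr17:25298144-25298443, plus strand.
Cpa3: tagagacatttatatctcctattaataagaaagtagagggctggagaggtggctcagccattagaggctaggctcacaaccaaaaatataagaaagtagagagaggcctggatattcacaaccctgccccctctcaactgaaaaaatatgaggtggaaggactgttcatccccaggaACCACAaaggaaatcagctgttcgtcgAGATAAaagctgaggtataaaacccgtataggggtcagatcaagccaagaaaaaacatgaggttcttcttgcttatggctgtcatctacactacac
Mcpt8: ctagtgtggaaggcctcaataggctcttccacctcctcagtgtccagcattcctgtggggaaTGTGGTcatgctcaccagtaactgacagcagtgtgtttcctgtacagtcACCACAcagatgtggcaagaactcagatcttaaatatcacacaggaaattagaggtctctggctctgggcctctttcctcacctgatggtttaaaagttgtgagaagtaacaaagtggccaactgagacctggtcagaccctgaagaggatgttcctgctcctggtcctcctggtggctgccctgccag
Prss34: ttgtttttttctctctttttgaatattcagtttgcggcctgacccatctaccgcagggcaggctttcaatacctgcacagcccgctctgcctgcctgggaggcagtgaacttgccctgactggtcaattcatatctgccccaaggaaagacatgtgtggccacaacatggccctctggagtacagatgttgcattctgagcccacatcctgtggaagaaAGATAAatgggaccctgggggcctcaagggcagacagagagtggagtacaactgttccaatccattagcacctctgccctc
Cpa3 and Prss34 are the 2 of the 10 members with a GATA core (from -46 in Cpa3 and from -31 in Prss34), which 11.2% of all windows hold. RUNX cores lie in the Cpa3 window from -73 and in the Mcpt8 window from -188 and from -139. No PU.1 core is in these 3 windows, and no marked core overlaps another.

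Cpa3 had the smallest unadjusted p of the 10 in both comparisons that involve irradiated KO cells. It had 9.13, 8.26 and 8.55 in irradiated KO, 8.30, 7.74 and 7.53 in untreated KO, 7.36, 7.95 and 7.94 in irradiated WT and 7.27, 8.19 and 7.58 in untreated WT cells. All 3 irradiated KO arrays lay above all 3 irradiated WT arrays, while irradiated and untreated KO arrays overlapped. Means were 8.65 ± 0.44 in irradiated KO, 7.86 ± 0.40 in untreated KO, 7.75 ± 0.34 in irradiated WT and 7.68 ± 0.47 in untreated WT cells (SD, n = 3). KO minus WT after irradiation was 0.90 (95% confidence interval 0.27 to 1.52, a 1.86-fold difference). Its unadjusted limma p was 0.00846, and it did not pass over all genes (limma adjusted p = 0.999). Irradiated minus untreated was 0.79 in KO (SE 0.29, unadjusted p = 0.0174, limma adjusted p = 0.140) and 0.07 in WT cells (adjusted p = 0.923). The difference between these irradiation effects was 0.72 (SE 0.41, adjusted p = 1.0).

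Mcpt8 was the only member whose irradiated and untreated KO arrays did not overlap. It had 8.69, 9.36 and 9.25 in irradiated KO against 8.05, 8.41 and 8.07 in untreated KO cells. WT values were far more spread, with 6.71, 9.28 and 8.40 after irradiation and 6.91, 8.51 and 7.80 without it. In both WT groups array 1 was lowest and array 2 highest. Irradiated minus untreated was 0.92 in KO (SE 0.53, limma adjusted p = 0.376) and 0.40 in WT cells (adjusted p = 0.730). The SE comes from all 12 arrays and so holds the wide spread of the WT groups. With only the KO arrays in the fit the same difference passed (limma adjusted p = 0.0468, SE 0.20), as it did for 3.63% of all genes.

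Prss34 had the largest spread of the 10. It had 7.56, 9.24 and 9.83 in irradiated KO, 6.96, 8.46 and 8.18 in untreated KO, 6.99, 9.31 and 8.12 in irradiated WT and 6.99, 9.03 and 8.13 in untreated WT cells. Array 1 was lowest in all 4 groups, by 1.13 or more below the next array. Irradiated minus untreated in the WT pairs was -0.0044, 0.28 and -0.0086 for numbers 1 to 3, while the WT arrays of 1 group spanned 2.32 with and 2.03 without irradiation. The difference of means was 1.01 in KO (95% confidence interval -0.50 to 2.52, limma adjusted p = 0.481) and 0.09 in WT cells (adjusted p = 0.958).

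Gzmb encodes granzyme B, a protease of cytotoxic lymphocyte granules that mouse mast cells can also make. It had 7.33, 6.16 and 7.09 in irradiated KO, 6.45, 6.65 and 5.11 in untreated KO, 6.24, 6.64 and 7.35 in irradiated WT and 5.57, 6.40 and 5.93 in untreated WT cells. The irradiation difference was 0.79 in KO and 0.77 in WT cells (SE 0.42, limma adjusted p = 0.336 and 0.340), and the difference between them was 0.01 with a 95% confidence interval of -1.28 to 1.31. All 3 WT pairs were higher after irradiation, by 0.67, 0.23 and 1.42. The average of both effects was 0.78 (SE 0.30, unadjusted p = 0.022, adjusted p = 0.0964), the smallest adjusted p of any member in any comparison.

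Hdc encodes histidine decarboxylase, the enzyme that makes histamine, and had the smallest spread of the 10. It had 7.10, 6.57 and 6.93 in irradiated KO, 6.76, 6.68 and 6.30 in untreated KO, 5.73, 6.90 and 6.20 in irradiated WT and 6.36, 6.96 and 6.58 in untreated WT cells. Irradiated minus untreated was 0.29 in KO and -0.35 in WT cells (SE 0.26, limma adjusted p = 0.618 and 0.504), with all 3 WT pairs below 0. The difference between the irradiation effects was 0.64 (95% confidence interval -0.17 to 1.45, adjusted p = 1.0), so opposite signs in the genotypes were not shown to differ.

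Counts over the 10 genes were read against all genes tested. For irradiated against untreated KO cells, limma called 0 of 10 at adjusted p under 0.05, where 5.94% of all genes were called, and 1 of 10 (Cpa3) had an unadjusted p under 0.05 (19.9% of all genes). For 1 of 10, Mcpt8, the groups had arrays that did not overlap, against 23.4% of all genes. In WT cells limma called 0 of 10 (4.83% of all genes), 0 had an unadjusted p under 0.05 (19.8%), and 0 had arrays that did not overlap (24.8%). For the average of both irradiation effects the counts were 0 called (16.5% of all genes) and 1 with an unadjusted p under 0.05, Gzmb (30.1%). Without the samples numbered 1, an alternative chosen after seeing the data, the average passed for 3 of 10 (17.7% of all genes): Elane (0.42, SE 0.11, limma adjusted p = 0.0346), Prtn3 (0.32, adjusted p = 0.0464) and Mcpt8 (0.88, adjusted p = 0.0244). Mcpt8 also passed without irradiated WT array 1 alone (1.02, adjusted p = 0.0235, with 15.6% of all genes called).

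Most differences were above 0. In KO cells 9 of 10 irradiation differences were above 0, with a median of 0.52 where all genes had -0.02. In WT cells it was 8 of 10 with a median of 0.10, where all genes had 0.00. Because the members share arrays and moved together, these counts are not independent observations and carry no test.

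For KO against WT cells, limma called 0 of 10 after irradiation and 0 of 10 without it, and in each comparison 0.00652% of all genes, which is 1 gene, Zc3hc1. After irradiation Cpa3 and Hdc had an unadjusted p under 0.05 (3.07% of all genes), and Cpa3 alone had arrays that did not overlap (6.4% of all genes). Without irradiation no member did either (2.15% and 7.96% of all genes). For the average of both KO effects limma called 0 of 10 (0.00652% of all genes), and 1, Cpa3, had an unadjusted p under 0.05 (4.14%). All 10 differences were above 0 after irradiation (median 0.56, all genes -0.01), and 8 of 10 without it (median 0.18, all genes 0.00). For the difference of the irradiation effects limma called 0 of 10 (0.00% of all genes), and 0 had an unadjusted p under 0.05 (1.53%).

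Without all 4 samples numbered 1, KO minus WT for untreated cells was -0.42 for Mpo, -0.21 for Elane, -0.27 for Prtn3, -0.37 for Ctsg, -0.0971 for Ms4a3, -0.25 for Cpa3, -0.28 for Gzmb, -0.26 for Prss34 and -0.28 for Hdc, and 0.0869 for Mcpt8. After irradiation it was above 0 for 6 of the 10, at 0.20 for Mpo, 0.0971 for Elane, 0.46 for Cpa3, 0.46 for Mcpt8, 0.82 for Prss34 and 0.20 for Hdc. For the other 4 it was -0.19 (Prtn3), -0.29 (Ctsg), -0.45 (Ms4a3) and -0.37 (Gzmb). None of these differences passed the test.

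**Figure D2:**
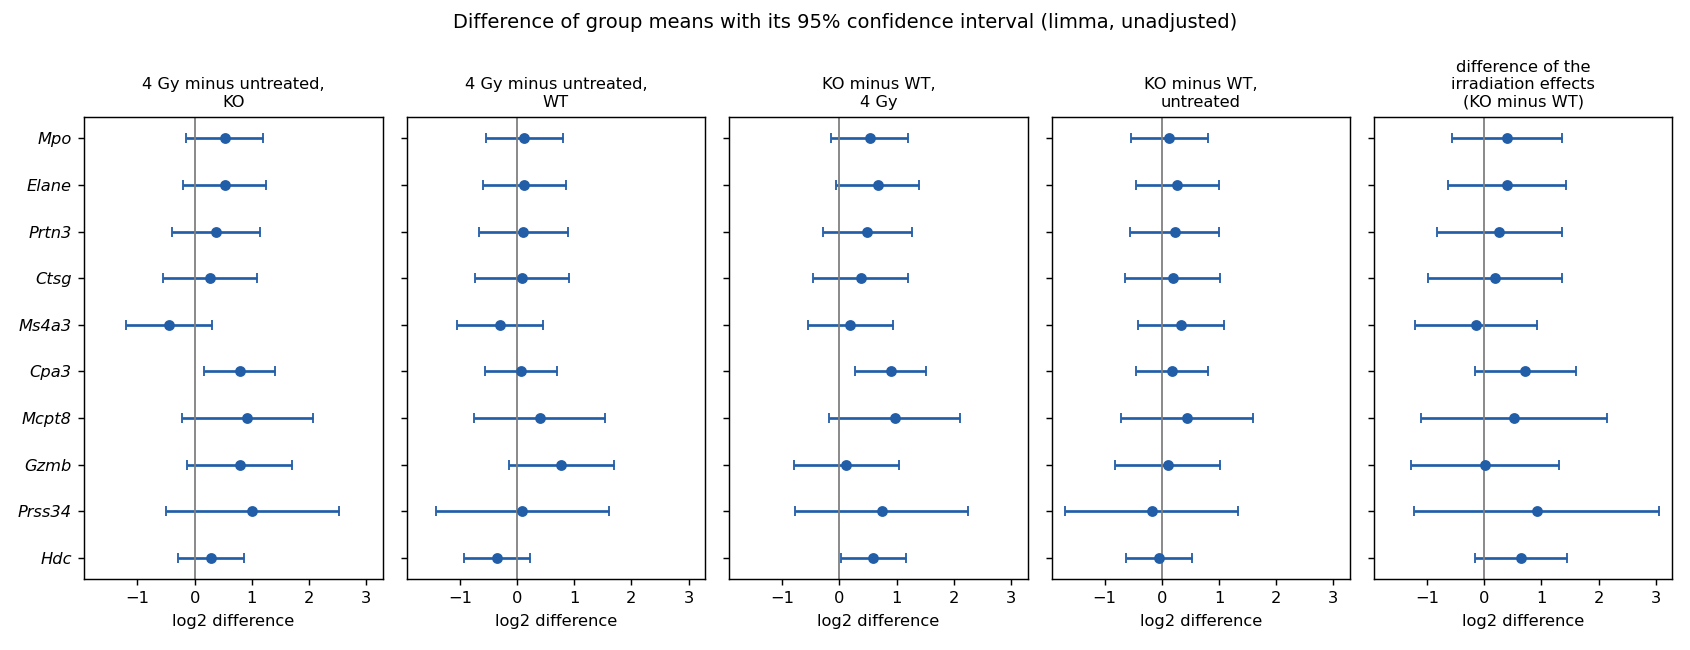
Differences of group means on the log2 scale (horizontal axis) for the 10 genes in 5 comparisons, as points with 95% confidence intervals from the limma fit over 12 arrays, not adjusted for the number of genes. Intervals exclude 0 for Cpa3 in irradiated against untreated KO cells and for Cpa3 and Hdc in irradiated KO against irradiated WT cells, and none of the 50 passed after adjustment.

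The width of the intervals came from the spread between arrays of a group. The median gene had an SD within groups of 0.18, and 95% of genes had less than 0.41. Granule genes had SDs of 0.46 (Mpo), 0.49 (Elane), 0.53 (Prtn3), 0.56 (Ctsg), 0.51 (Ms4a3), 0.42 (Cpa3), 0.79 (Mcpt8), 0.63 (Gzmb), 1.05 (Prss34) and 0.38 (Hdc). Prss34 was exceeded by 29 of the 15348 genes and Mcpt8 by 86, while Hdc, the least spread, was exceeded by 1027. Set against the 500 genes nearest in mean level, Prss34 and Mcpt8 each had a larger SD than 99.8%, Mpo than 96.2% and Hdc than 92.4%.

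Without the 4 samples numbered 1, which were left out because they were extreme, so that lower SDs follow in part from the choice, the SDs ran from 0.088 to 0.71. Prtn3 then had 0.088 (13.1% of genes had less) and Elane 0.16 (48.7% had less). Ms4a3 (0.21, 71.9% had less), Ctsg (0.22, 72.5%), Cpa3 (0.25, 81.9%) and Mpo (0.27, 84.2%) stayed above most genes. Prss34 (0.58), Gzmb (0.71), Mcpt8 (0.42) and Hdc (0.34) still exceeded at least 93.0% of all genes.

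**Figure D3:**
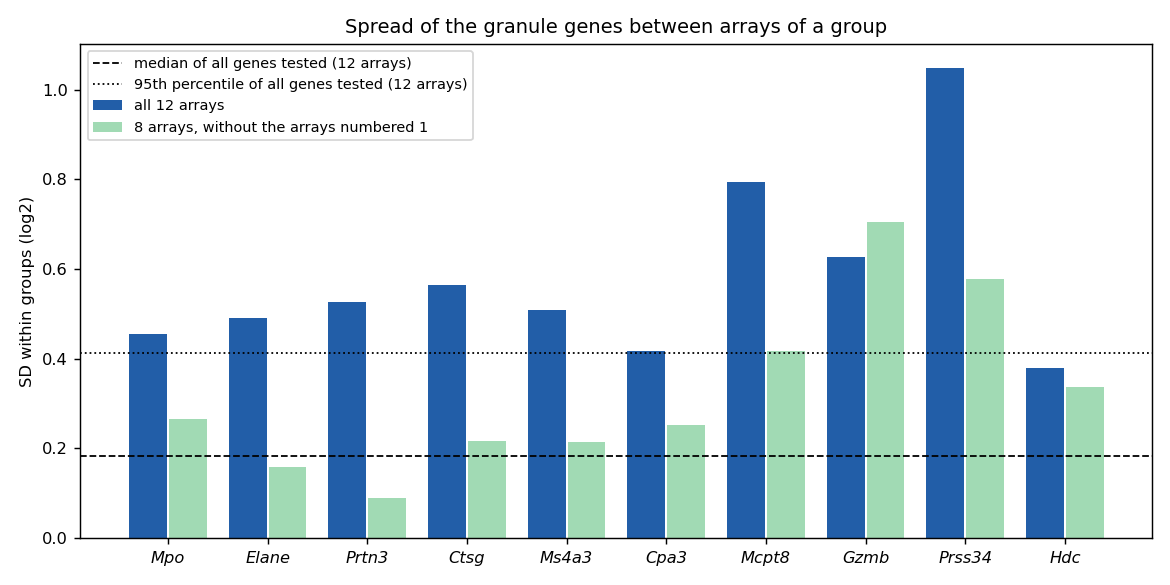
SD within groups on the log2 scale (vertical axis, from 0) for each gene, over all 12 arrays (dark bars) and over the 8 arrays left without those numbered 1 (light bars), with the median and the 95th percentile of all genes as lines. Elane and Prtn3 lie below the median line without these arrays, whereas Mcpt8, Gzmb and Prss34 stay above the 95th percentile line.

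With each group's mean subtracted, the deviations of the 12 arrays showed which genes moved together. The 10 pairs among Mpo, Elane, Prtn3, Ctsg and Ms4a3 had Pearson's r between 0.65 and 0.97 (median 0.90), with the top value for Elane and Prtn3. Cpa3, although a mast cell gene, followed them, with r of 0.77 to 0.90. Mcpt8 and Prss34 formed a pair of their own (r = 0.84), and Prss34 had r of only -0.22 to 0.09 with the 5 neutrophil-lineage genes. Hdc had r of 0.57 to 0.80 with the neutrophil-lineage genes and 0.76 with Mcpt8, and Gzmb had 0.33 to 0.69 with the neutrophil-lineage genes. These coefficients are descriptions with no test, since all rest on the same 12 arrays.

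Without the samples numbered 1, the 8 remaining arrays hold 1 independent difference per group, 4 in all, so these coefficients are coarse. The neutrophil-lineage pairs then ranged from -0.57 to 0.89 (median 0.46). Cpa3 had -0.54 to 0.56 with the neutrophil-lineage genes (median 0.32) and 0.57 to 0.68 with Mcpt8 and Prss34, against 0.0492 to 0.46 with that pair over 12 arrays. Prss34 had -0.36 to 0.67 with the neutrophil-lineage genes (median 0.29). The Mcpt8 and Prss34 pair had r = 0.89, and Hdc had 0.87 to 0.96 with the pair.

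**Figure D4:**
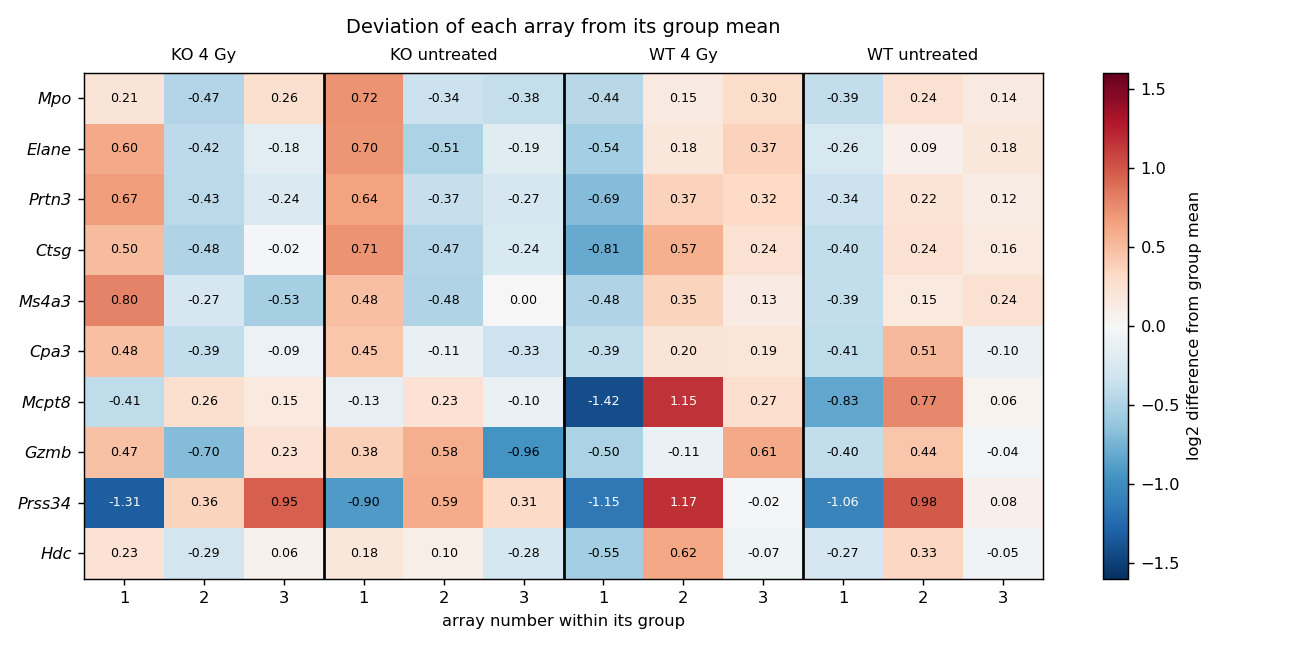
Difference of each array from its group's mean on the log2 scale (colour and printed value), with genes as rows and the 3 arrays of each group as columns. Column 1 is red in both KO groups and blue in both WT groups for Mpo, Elane, Prtn3, Ctsg, Ms4a3, Cpa3, Gzmb and Hdc, while Mcpt8 and Prss34 are blue in column 1 of all 4 groups.

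**Figure D5:**
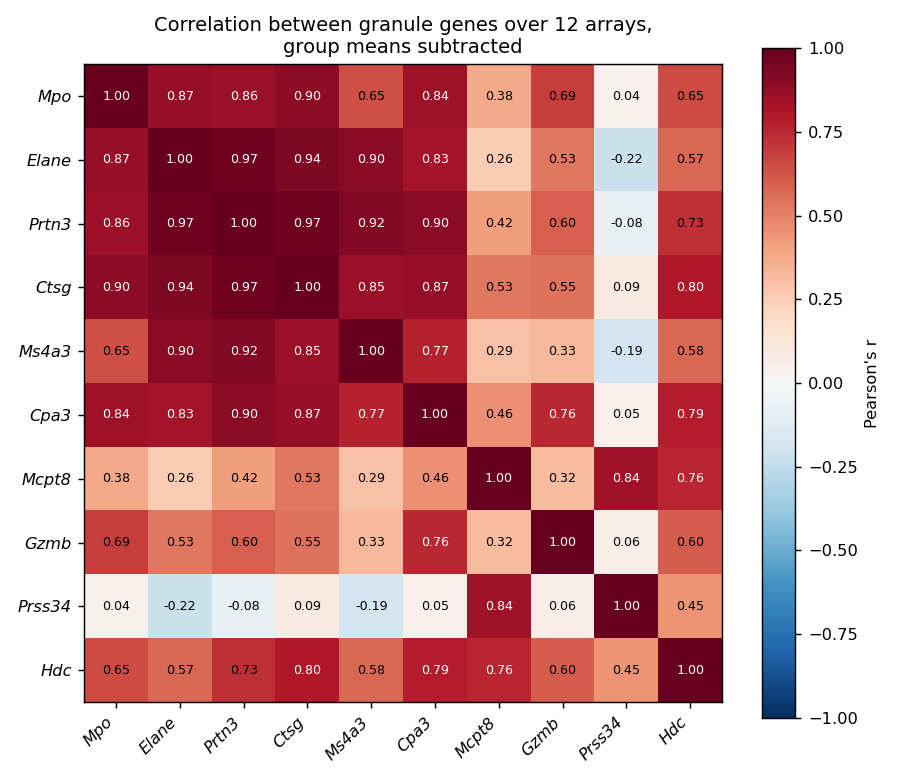
Pearson's r between the 10 genes over 12 arrays after subtraction of group means (colour and printed value). The block of Mpo, Elane, Prtn3, Ctsg, Ms4a3 and Cpa3 holds values of 0.65 and above, and Prss34 lies near 0 with all of these.

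Genes outside the list that followed the members most closely were found by the same measure among 15347 genes, as a description of which genes rank highest. Prtn3 was followed by Mrpl19 (r = 0.98), Trem3, a receptor of the TREM family on myeloid cells (r = 0.98), and Elane, and Ctsg by Prtn3 and Trem3. Elane was followed by Prtn3 and Lbp, the lipopolysaccharide-binding protein (r = 0.95), Mpo by the lysosomal lipid carrier Gm2a (r = 0.96), and Ms4a3 by Senp3 and Sirpa, an inhibitory receptor of myeloid cells (r = 0.94 each). Closest to Cpa3 were Ms4a6c (r = 0.97) and Cst7, the gene of cystatin F, an inhibitor of granule cathepsins (r = 0.96). Mcpt8 was followed by 1700025G04Rik (r = 1.00), Pck2 (r = 0.98) and Cyp11a1, the cholesterol side-chain cleavage enzyme (r = 0.97), Prss34 by Gm10589 (r = 0.97), Gzmb by Mst1r (r = 0.96) and Hdc by Farsa (r = 0.97). The rest of the top 3 were Acy1 (r = 0.95) and Slc35f2 (0.93) for Mpo, Hdhd2 (0.94) for Elane and Akt1s1 (0.94) for Ctsg. Ms4a3 had Mrpl19 (0.94), Cpa3 had Trpv2 (0.96), and Gzmb had Shcbp1l and Zfp668 (0.93 each). Prss34 had Olfr331 (0.96) and Tap2 (0.95), and Hdc had Ruvbl2 and Antxr2 (0.96 each). The ranking was not repeated without the samples numbered 1.

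Lists of other granule genes and cell type markers were set beside the samples numbered 1. Over all genes tested, 19.8% were highest and 15.6% lowest in array 1 of both KO groups, and 18.2% were lowest in array 1 of both WT groups. Of 11 further primary granule genes, 7 were highest in array 1 of both KO groups and 2 lowest in array 1 of both WT groups. Of 12 other mast cell and basophil genes 4 and 2 were. Both of these WT counts (18.2% and 16.7%) lay near the share of all genes. Of 17 genes of secondary granules and late neutrophils (all tested), 12 were highest in array 1 of both KO groups, among them Ltf (lactoferrin), Ngp and the calprotectin genes S100a8 and S100a9, and 14 were lowest in array 1 of both WT groups. Their mean log2 level was 6.18 to 7.12 in irradiated KO, 6.04 to 6.88 in untreated KO, 6.24 to 7.25 in irradiated WT and 5.99 to 7.30 in untreated WT cells. Of monocyte markers, 7 of 8 tested (of 9 listed) were highest in array 1 of both KO groups, including the receptor genes Csf1r and Ccr2, and 2 were lowest in array 1 of both WT groups. The monocyte mean was 6.50 to 7.82 in irradiated KO, 6.64 to 7.82 in untreated KO, 6.70 to 6.74 in irradiated WT and 6.80 to 7.04 in untreated WT cells. Of B cell markers, 0 of 6 tested (of 8 listed) were highest and 3 lowest in array 1 of both KO groups, and 3 were lowest in array 1 of both WT groups. Their mean was 6.06 to 8.27 in irradiated KO, 6.41 to 8.07 in untreated KO, 5.84 to 6.55 in irradiated WT and 5.99 to 7.02 in untreated WT cells. Of 24 other mast cell and basophil genes listed, 12 passed the brightness limit, among them Ms4a2, Fcer1g and Cd200r3, and 11 did not. Fcer1a, the gene of an IgE receptor subunit of mast cells and basophils, was among those 11, at 3.34 to 4.06 in all 12 arrays. The part of such cells in the spread of the granule genes was not tested.

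Other genes of the same granules and their regulators were taken from lists of textbook genes. Of all genes tested, 5.94% were called for irradiation in KO cells, 4.83% in WT cells and 16.5% in the average of both effects. Of 11 further primary granule genes tested, none passed in irradiated against untreated KO cells, in WT cells or between genotypes, and 1 rose in the average of the irradiation effects, Ctsd, the lysosomal protease cathepsin D, by 0.46 (SE 0.10, limma adjusted p = 0.00774). The 17 secondary granule genes had 0 calls in all 7 comparisons, with medians of 0.13 in KO and 0.07 in WT cells for irradiation. The 5 tested eosinophil genes and the 9 granulocyte cytokine receptor genes had 0 calls as well.

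Of 24 other mast cell and basophil genes, 12 were tested, 11 were below the brightness limit and Il1rl1 is not analysed here. Of the 12, 1 rose after irradiation in each genotype (5.94% of all genes were called in KO and 4.83% in WT cells). The gene was Alox5, the 5-lipoxygenase that starts leukotriene synthesis. It had 8.33, 7.49 and 7.43 in irradiated KO against 6.28, 5.86 and 6.16 in untreated KO cells. WT cells had 7.56, 7.99 and 7.22 with irradiation against 5.58, 6.28 and 6.03 without it. The groups did not overlap in either genotype. Alox5 rose by 1.65 in KO (SE 0.26, 3.14-fold, limma adjusted p = 0.00314) and by 1.63 in WT cells (adjusted p = 0.00354). Over the mean of its 2 probe sets the rises were 0.91 and 0.93, still past the test.

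Of 9 cytotoxic granule genes tested, Gzmm (0.74, limma adjusted p = 0.0344) and Stx11, a syntaxin needed for granule release (0.59, adjusted p = 0.00877), rose in the average of the irradiation effects, where 16.5% of all genes were called. Gzmm lost its call when any of 9 arrays was left out, namely irradiated KO arrays 2 (adjusted p = 0.0825) and 3 (0.0820), untreated KO arrays 1 (0.0763) and 2 (0.0814), irradiated WT arrays 2 (0.0687) and 3 (0.0848) and untreated WT arrays 1 (0.0662), 2 (0.0714) and 3 (0.0589).

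Of 16 transcription factor genes of the myeloid and mast cell programmes, 5 fell and 1 rose in the average of the irradiation effects, where 16.5% of all genes were called. Myb, a factor that activates Mpo and Elane, had 10.65, 10.15 and 10.27 in irradiated KO against 11.21, 11.24 and 10.94 in untreated KO cells. WT cells had 10.25, 10.37 and 10.04 with irradiation against 10.61, 11.20 and 11.06 without it. Its average effect was -0.76 (SE 0.12, limma adjusted p = 0.0015), and the groups did not overlap in either genotype. Over the mean of its probe sets the average was -0.47, still past the test, with -0.55 in KO and -0.39 in WT cells, neither of which passed. Gata1, a factor of erythroid, megakaryocytic and mast cell genes, fell by 0.50 (adjusted p = 0.0149) and Stat5b, a signal transducer of IL-3, by 0.42 (adjusted p = 0.0119). Each of the 3 averages of Myb, Gata1 and Stat5b passed the test with any 1 array left out. Irf8 fell by 0.66 in the average (limma adjusted p = 0.0217), a call lost in 5 of 20 alternatives. Within a genotype Myb passed too (-0.77, adjusted p = 0.0226 in KO, -0.74, adjusted p = 0.032 in WT), but each of these calls was lost in 5 of 21 alternatives, at adjusted p up to 0.0973 in KO and up to 0.21 in WT cells. Of 5 erythroid marker genes, 4 fell in the same average, led by Car1, carbonic anhydrase 1 (-2.70, SE 0.19, adjusted p = 3.53e-06), and their mean level was 5.56 to 6.10 in irradiated KO, 7.004 to 7.41 in untreated KO, 5.66 to 5.89 in irradiated WT and 6.41 to 6.89 in untreated WT cells. The part of erythroid cells in the fall of these factors was not tested. No factor of the list was called between genotypes.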

How the data were processed

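Expression was measured with Affymetrix arrays in 12 samples of LSK cells. The authors deposited log2 values for each array and probe set. Per the submitters' processing notes, oligo and RMA were used, with no versions, genome build or annotation release named. Precision is limited by the number of arrays.

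Groups and replicate numbers came from the sample titles. Of 41345 probe sets, 23521 had exactly 1 symbol in the platform annotation, 1814 had several and 16010 had none. RefSeq matched 23328 of these 23521 and gave current symbols, and the brightest probe set stood for a gene. Genes above the 40th percentile of the table (5.29) in at least 3 arrays were tested (15348 of 22180). One linear model of 4 group means over 12 arrays was fitted with limma 3.58.1 under R 4.3.3 (functions lmFit and eBayes), two-sided, with Benjamini-Hochberg adjustment over all genes tested and a threshold of 0.05. It was tested on simulated data. Promoter windows of all 10 members were found in the RefSeq table. Probe sequences were not used here, so cross-hybridisation between related proteases was not checked.

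Pairing by replicate number was checked through deviations from group means over all genes tested. Irradiated and untreated WT arrays of the same number had r of 0.49, 0.48 and 0.42, so the numbers were taken to pair the WT samples. The labels do not state such pairs. In KO cells these values were 0.47, -0.24 and -0.12, so only number 1 matched by this measure. Irradiated KO array 2 had r = 0.52 with untreated array 3, and irradiated array 3 had 0.44 with untreated array 2. The main fit used no pairs in either genotype, so its SEs hold the differences between pairs. For Prss34 in KO cells the SE was 0.70, against 0.19 with a replicate block within genotype. The labels do not say that samples of a group came from separate pools, so p-values measure the spread between these arrays, which may be technical.

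The members, lists and tests were chosen with earlier results of these data known. Genes named are the members, Zc3hc1, Kit, the lineage stain genes and up to 4 passing genes of each list by smallest adjusted p. To these come the 3 genes most correlated with each member. Genes named from the lists as examples of where array 1 lay or of brightness were chosen after their values were seen. The alternatives were no brightness limit, array medians subtracted, cyclic loess, a trended and robust variance prior, only the arrays compared, replicate number as a block across all groups or within genotype, the mean of all probe sets of a gene, each array left out in turn and, added after seeing the data, all arrays numbered 1 left out.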

Additional observations from a re-analysis of the deposited data

How the results depend on the processing

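No alternative gave a member a call between genotypes, for irradiation in WT cells or for the difference of irradiation effects. For irradiation in KO cells the count of members called was 0, and it became 1 with only the arrays compared (Mcpt8), 1 with a replicate block across all groups (Prss34, adjusted p = 0.0467, where 7.97% of all genes passed) and 4 with a replicate block within genotype (Cpa3, Elane, Mcpt8 and Prss34, adjusted p 0.0125 to 0.0295, 9.06% of all genes). For the average irradiation effect it was 0, and it became 4 with the replicate block within genotype (the same 4 names, 21.6% of all genes), 0 to 1 with each array left out in turn, and 3 without the arrays numbered 1. The block changed no other call. In KO cells only number 1 matched by deviations (r = 0.47). Irradiated array 2 correlated best with untreated array 3 (r = 0.52) and irradiated array 3 with untreated array 2 (r = 0.44), a hint from the data and not from the design. The cause of these changes was not tested.

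Of 1020 recomputed differences of members, none of those that turned sign was called in either fit. Signs turned in 0 of 370 under other scalings, filters, priors, blocks and probe set rules, in 12 of 50 without the arrays numbered 1, and in 53 of 600 with 1 array left out. Without the arrays numbered 1, KO minus WT in untreated cells was -0.42 for Mpo, -0.21 for Elane, -0.27 for Prtn3, -0.37 for Ctsg, -0.0971 for Ms4a3, -0.25 for Cpa3 and -0.28 for Gzmb. After irradiation it was -0.19 for Prtn3, -0.29 for Ctsg, -0.45 for Ms4a3 and -0.37 for Gzmb, and the difference of irradiation effects was -0.0835 for Gzmb. With 1 array left out, the irradiation difference in WT cells ranged as follows: Mpo -0.066 to 0.35, Elane -0.061 to 0.40, Prtn3 -0.071 to 0.46, Ctsg -0.20 to 0.49, Cpa3 -0.14 to 0.33, Mcpt8 -0.18 to 1.11 and Prss34 -0.50 to 0.67. The KO minus WT difference in untreated cells ranged thus: Mpo -0.23 to 0.32, Elane -0.081 to 0.52, Prtn3 -0.096 to 0.41, Ctsg -0.17 to 0.42, Cpa3 -0.043 to 0.44, Gzmb -0.19 to 0.58, Prss34 -0.71 to 0.31 and Hdc -0.19 to 0.11. After irradiation the ranges were Ctsg -0.037 to 0.65, Ms4a3 -0.21 to 0.46 and Gzmb -0.13 to 0.47. For the difference of irradiation effects they were Prtn3 -0.083 to 0.58, Ctsg -0.22 to 0.54, Ms4a3 -0.55 to 0.12, Mcpt8 -0.18 to 1.10 and Gzmb -0.47 to 0.36. At 3 arrays a group, the 95% interval of a difference between groups reached 0.57 (Hdc) to 1.51 (Prss34) to either side, against a median of 0.32 over all genes tested.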
